A study of Danio rerio with 2 samples.

Results

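The cytosolic ribosomal protein genes were taken by symbol, case ignored. A symbol had to begin with rpl or rps followed by a digit or with rplp and a digit, or be *rpsa*. Ribosomal S6 kinases were left out. This gave 84 of the 32059 features in the count tables, with 83 different symbols. Of the features, 48 are named for the large ribosomal subunit and 36 for the small one. The 36 include *rps19bp1*, a binding protein gene. Pseudogene rows were meant to be left out too, but no separate filter for them was run. The 84 features were followed in HCs, SCs, neurons, *fabp7a*-positive cells, hepatocytes and blood cells of 2 zebrafish single-cell libraries. Both libraries came from 4 dpf larvae that carry the Tg(Brn3c:mGFP) reporter, in which the Brn3c promoter drives a membrane-bound GFP in HCs, and both hold cells sorted for GFP. One library came from larvae labelled hsd17b7-KO (the mutant library), in a study whose mutant line has a frameshift deletion in the sterol enzyme gene *hsd17b7*, and 1 from larvae labelled wild-type (the control library). No drug treatment is named for either library. How many larvae were pooled per library is not given in the sources used here.

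The mutant library held 81920586 unique molecular identifiers (UMIs, the count of distinct captured RNA molecules) in 10119 cell barcodes and the control library 180590990 in 19270. The 8322 mutant and 17385 control barcodes in which 500 or more genes were detected, and whose mitochondrial share of UMIs did not pass 20%, were analysed, with medians of 6206 and 7491 UMIs. The libraries shared 49 barcodes. Each genotype has a single library, and differences are therefore given without p-values. The 95% intervals cover counting error only and are narrow because the module is abundant, so an interval that leaves out 0 says nothing about variation between larvae or between libraries. The 2 libraries were counted with different Cell Ranger versions, 9.0.1 for the mutant and 7.1.0 for the control, which cannot be told apart from genotype. The *hsd17b7* transcript was not lower in the mutant library, with 58.6 CPM (UMIs of a gene per 1000000 UMIs of the cells summed) in its kept cells against 21.2 CPM in control cells, and 216 CPM in mutant HCs against 114 CPM in control HCs. Since this leaves the labels unchecked, higher and lower refer throughout to the library labelled mutant as set against the one labelled control.

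Ribosomal proteins are the protein components of the cytosolic ribosome, which joins a small subunit that reads the mRNA with a large subunit that forms peptide bonds. Their mRNAs are short, stable and among the most abundant in most cells, and many of them share a pyrimidine-rich start that places their translation under mTOR control. Vertebrates carry mostly 1 functional gene per protein, but teleosts kept extra copies of some of them, such as *rpl5a* with *rpl5b* and *rplp2* with *rplp2l*. In single-cell data the summed share of these mRNAs commonly varies with cell type, cell maturity and cell quality. HCs are the mechanosensory cells of the inner ear and lateral line, and SCs are the epithelial cells that surround them.

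Cells were assigned to classes by marker UMIs that include no ribosomal protein gene. HCs had at least 3 UMIs of *myo6b*, which encodes an unconventional myosin of HCs, and numbered 1185 in the mutant and 1414 in the control library. SCs had at least 1000 CPM of *stm* (starmaker, an otolith matrix gene), 359 mutant and 799 control cells. Neurons had at least 1 UMI of *elavl3*, which encodes a neuronal RNA-binding protein (3978 and 3861 cells), and hepatocytes at least 2 UMIs each of the liver genes *tfa* and *fabp10a* (767 and 1289 cells). The *fabp7a* gate took cells with at least 3 UMIs of *fabp7a*, a lipid-binding protein gene of neural progenitors and glia (561 and 790 cells). Blood cells were taken as cells with at least 10% globin UMIs, 1 cell in the mutant and 6651 in the control library. The classes overlap, since 291 mutant and 489 control HCs passed a further gate.

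The marker lists fit most of these names. HC markers summed to 4.31 times their level over all kept cells in mutant HCs and 6.65 times in control HCs, SC markers to 10.5 and 8.47 times in the SC gate, and neuron markers to 2.62 and 4.49 times in the neuron gate. Each list holds its own gate gene, so part of each rise was set by the gate. In SCs *stm* alone gave 9278 of 17099 CPM in mutant and 8287 of 13577 CPM in control cells. Marker by marker, 13 of 14 SC markers were at least 2-fold over all kept cells in each library. So were all 13 neuron markers in neurons, and 16 of 17 HC marker features in mutant and 17 in control HCs. RNA of the mGFP reporter was at 865 CPM in mutant and 481 CPM in control HCs. Neurons also carried it, at 373 CPM in mutant and 294 CPM in control cells, against 18.6 and 12.1 CPM in hepatocytes. The *fabp7a* gate did not hold the same cells in both libraries. Of its 561 mutant cells, 261 also passed the hepatocyte gate, against 59 of 790 control cells. There all 15 hepatocyte markers were at least 2-fold over all kept cells in the mutant library and 0 in the control library. They summed to 119616 CPM in mutant against 11743 CPM in control cells. Progenitor markers, *fabp7a* among them, summed to 2.57 times their level over all kept cells in mutant and 7.72 times in control cells. Of 13 such features, 8 in mutant and 13 in control cells were at least 2-fold over. The glial filament gene *gfap* was at 27.6 CPM in mutant and 1522 CPM in control cells, *her4.1* at 274 and 778 CPM and *sox2* at 70.4 and 124 CPM. The progenitor name is therefore not used for this gate here. Control cells of the 5 non-blood classes also carried globin RNA, between 1.57% and 4.59% of their UMIs, whereas mutant cells carried between 0.000161% and 0.0207%. Hepatocyte markers summed to 18802 CPM in mutant HCs and 8176 CPM in control HCs. The part of this foreign RNA in the module's values was not tested, apart from the share without globin genes and the values in cells of a single gate.

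The 84 ribosomal protein features together took a larger share of all UMIs in the mutant than in the control library in each of the 5 classes, and over cells of all depths the difference was smallest in hepatocytes, an order that did not hold among cells of 5000 to 15000 UMIs (log2 0.38 in hepatocytes and 0.32 in HCs). In HCs the module made up 15.2% of UMIs in the mutant library (15.21 to 15.24%) and 12.6% in the control library (12.57 to 12.59%), a log2 ratio of 0.28 or a fold of 1.21. SCs had 16.9% in the mutant and 12.3% in the control library (log2 0.46), and neurons 14.5% and 11.2% (log2 0.37). The *fabp7a* gate had 20.8% in the mutant and 15.4% in the control library (log2 0.44). Hepatocytes had 20.6% in the mutant and 19.4% in the control library (log2 0.083). Cells that passed no gate, 2301 mutant and 4167 control, had 16.8% and 13.6%.

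Single cells spread far wider than these library differences. The quartiles of mutant HCs lay at 5.03% and 19.3% around a median of 12.3%, and those of control HCs at 5.70% and 15.1% around a median of 11.0%. In SCs the medians were 14.1% in mutant and 9.96% in control cells, and in neurons 12.3% and 9.23%. Hepatocyte medians were 19.9% in mutant and 18.6% in control cells, and their quartile ranges nearly coincided. The quartile ranges of the libraries overlapped in every class. With mitochondrial and globin UMIs left out of the total, the module share was 15.6% in mutant and 13.1% in control HCs and 14.8% in mutant and 11.9% in control neurons. In HCs that passed no other gate, 894 mutant and 925 control cells, it was 13.5% and 11.7%. The large subunit genes held 1.204 times the UMIs of the small subunit genes in mutant HCs and 1.210 times in control HCs, and between 1.21 and 1.24 times in the other 4 gates of both libraries, so neither subunit carried the difference alone.

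**Figure D1:**
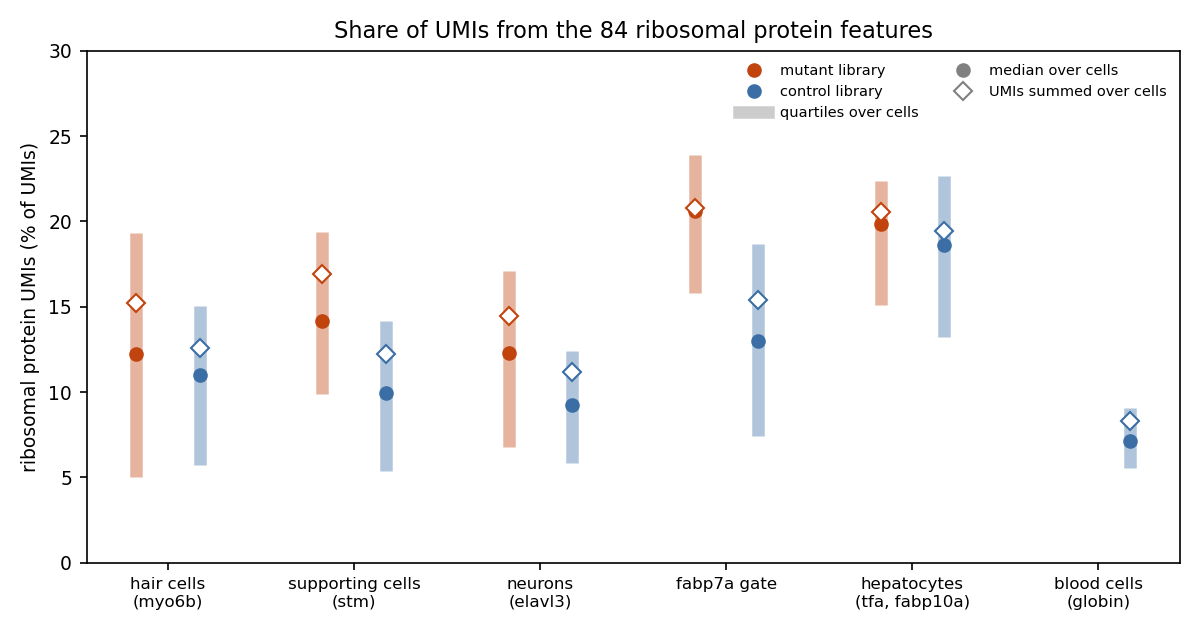
Share of UMIs from ribosomal protein genes (y axis, % of UMIs) in 6 cell classes, with the mutant library in orange left of the control library in blue; filled points are medians over cells, bars the quartiles over cells and open diamonds the share of the summed UMIs. The summed share is higher in the mutant library in all 5 classes shown for both libraries, 15.2% against 12.6% in HCs, and the blood cells of the control library lie lowest, at 8.31%.

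Member by member, most of the module was higher in the mutant library by a moderate amount. A gene was compared in a class where it had at least 100 UMIs over both libraries, which left all 84 members in HCs and 83 in each of the other classes (all but *rps8b*). In HCs 73 members had a higher CPM in the mutant and 11 a lower one, with a median log2 ratio of 0.28 beside -0.092 over all 15584 genes compared. The members' median was 0.47 in SCs (71 higher and 12 lower), 0.36 in neurons (71 and 12), 0.39 in the *fabp7a* gate (72 and 11) and 0.042 in hepatocytes (48 and 35). The median of all genes was -0.13 in SCs, -0.14 in neurons, -0.71 in the *fabp7a* gate and -0.19 in hepatocytes. Set against that median, the module's log2 ratio was 0.37 in HCs, 0.59 in SCs, 0.51 in neurons, 1.14 in the *fabp7a* gate and 0.27 in hepatocytes.

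Few members differed by 2-fold or more on the scale of all UMIs. In HCs 1 member was at least 2-fold higher in the mutant library, where 5.31% of all genes were, and 3 were at least 2-fold lower, where 17.4% of all genes were. SCs had 1 higher and 3 lower members, beside 6.35% and 21.1% of all genes. Neurons had 0 higher and 2 lower members, beside 5.61% and 15.8%. The *fabp7a* gate had 4 higher and 3 lower members, beside 9.19% and 39.5%. Hepatocytes had 0 higher and 3 lower members, beside 5.43% and 19.4%. On this scale such members were thus fewer in share than genes at large in each class and direction. Genes at large include many with few UMIs and wide counting error. The module moved by small amounts, with a few members standing apart. In the *fabp7a* gate this depends on the scale. Scaled by the median ratio of all genes, 56 members there were at least 2-fold higher and 1 lower. All these comparisons come from the same 2 libraries, so a member that stands apart in several classes is not a repeated observation.

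**Figure D2:**
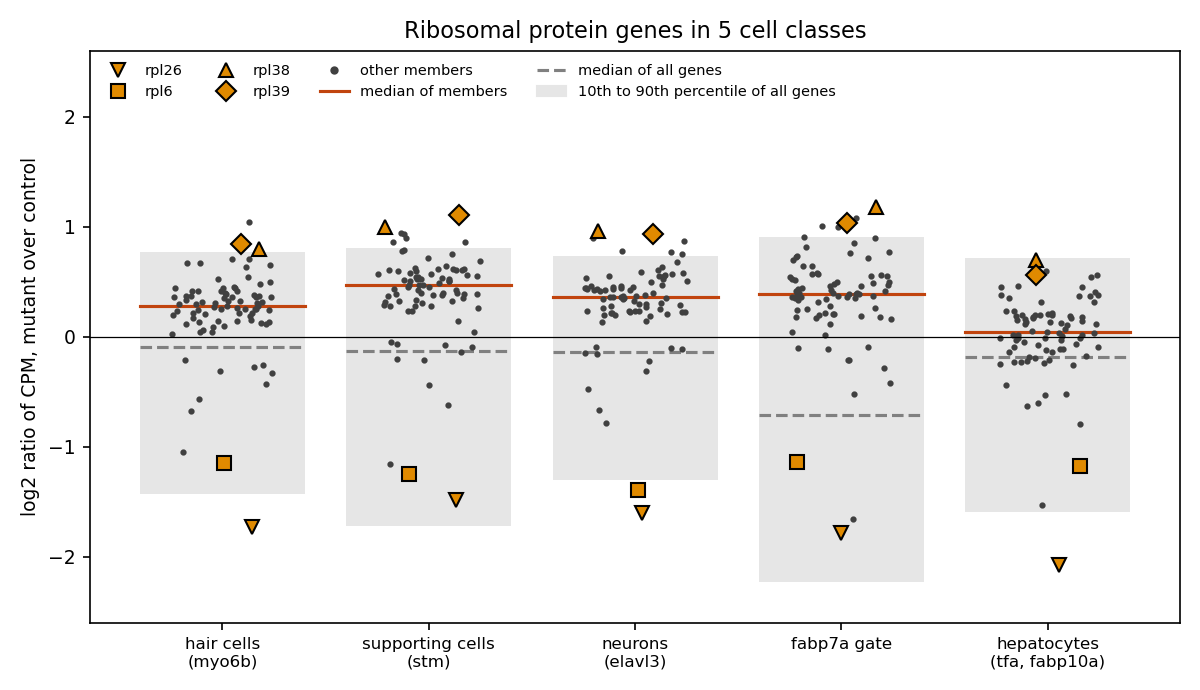
Log2 ratio of CPM, mutant over control (y axis), of each ribosomal protein gene with at least 100 UMIs in 5 cell classes (x axis). Grey bars span the 10th to 90th percentile of all genes compared, dashed lines their median and orange lines the median of the members; *rpl26* and *rpl6* lie between -2.07 and -1.14 in every class, and *rpl38* and *rpl39* between 0.56 and 1.18.

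Of the 83 members compared in all 5 classes, 48 were higher in the mutant library in every class, 11 were lower in every class and 24 had mixed directions. Of all genes compared, 45.0% were higher in HCs, 43.8% in SCs, 42.4% in neurons, 25.8% in the *fabp7a* gate and 39.6% in hepatocytes. How many of all genes kept 1 direction in every class was not counted. The classes also share cells, such as 261 of the 561 mutant cells of the *fabp7a* gate with the hepatocyte gate. The 11 members lower in every class were *rpl26*, *rpl6*, the second *rpl37* feature, *rpl4*, *rps18*, *rps6*, *rpl5b*, *rpl15*, *rps3*, *rpl23a* and *rpl3*. Of these, *rpl26* and *rpl6* were at least 2-fold lower in each class.

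The lowest ratio in each class was that of *rpl26*, which encodes a large subunit protein known in mammals to bind the p53 mRNA and promote its translation. Its level was 86.2 CPM in mutant HCs (1453 UMIs) against 286 CPM in control HCs (6889 UMIs), a log2 ratio of -1.73 (-1.81 to -1.65). It was 96.4 CPM in mutant and 269 CPM in control SCs, and 74.2 CPM in mutant and 226 CPM in control neurons. Hepatocytes had 91.2 CPM in the mutant and 384 CPM in the control library, its lowest ratio (log2 -2.07), and the *fabp7a* gate 95.6 and 329 CPM. The mutant levels of the 5 classes, 74.2 to 96.4 CPM, thus lay below all 5 control levels, 226 to 384 CPM. The same held cell by cell at matched depth. Among HCs with 10000 to 15000 UMIs, 56.3% of 380 mutant cells (exact interval 51.2 to 61.4%) and 83.7% of 447 control cells (79.9 to 87.0%) had at least 1 *rpl26* UMI, with medians of 1 and 3 UMIs per cell. With 6626 mutant and 44426 control UMIs in all kept cells, *rpl26* was a minor member, 0.0516% of the module in the mutant and 0.202% in the control library.

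Lower in the same way was *rpl6*, which encodes another large subunit protein. Its level was 474 CPM in mutant HCs against 1050 CPM in control HCs (log2 -1.15), 422 against 1002 CPM in SCs and 370 against 969 CPM in neurons, where the ratio was lowest (log2 -1.39). The *fabp7a* gate had 570 CPM in mutant and 1256 CPM in control cells, and hepatocytes 600 CPM in mutant and 1354 CPM in control cells. HCs with 10000 to 15000 UMIs had a median of 5 *rpl6* UMIs in mutant and 11 in control cells, and SCs of that depth 4 in mutant and 10 in control cells. Hepatocytes of that depth had 9 in mutant and 8 in control cells, so the lower *rpl6* level in mutant hepatocytes was not seen at this depth.

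Also low was the second of the 2 features with the symbol *rpl37* (ENSDARG00000076360), for which the gene name table gives COA1. It had only 392 mutant and 2375 control UMIs in all kept cells. In HCs its level was 5.87 CPM in mutant (99 UMIs) and 12.1 CPM in control cells (292 UMIs), a log2 ratio of -1.04 (-1.39 to -0.71). The main *rpl37* feature (ENSDARG00000034291), a component of the large subunit, went the other way, with 2771 CPM in mutant against 1768 CPM in control HCs (log2 0.65). Because the names disagree, the second feature cannot be counted as a ribosomal protein gene with certainty.

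The other 8 members that were lower in every class differed by less. In HCs their log2 ratios ran from -0.67 for *rpl4* and -0.57 for *rps18* to -0.21 for *rpl3*. For *rps6*, the substrate of ribosomal S6 kinase, the level was 1119 CPM in mutant against 1504 CPM in control HCs (log2 -0.43). Of these 8 genes *rps18*, *rps6* and *rps3* encode proteins of the small subunit, and the others proteins of the large one. In SCs *rpl15* (-0.048), *rpl23a* (-0.066) and *rpl3* (-0.076) lay close to 0.

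Apart from *rps8b* in HCs, the 4 highest ratios in each class were those of *rpl39*, *rpl38*, *rpl29* and *rpl36a*, all large subunit genes. In HCs *rpl39* had 3083 CPM in mutant against 1723 CPM in control cells (log2 0.84), 3613 against 1679 CPM in SCs (log2 1.11) and 2658 against 1392 CPM in neurons (log2 0.93). Hepatocytes had 4099 CPM in mutant and 2775 CPM in control cells (log2 0.56). The level of *rpl38*, a large subunit protein needed in mice for the translation of some Hox mRNAs, was 1535 CPM in mutant and 883 CPM in control HCs (log2 0.80), 1701 and 853 CPM in SCs, and 1447 and 742 CPM in neurons. In HCs with 10000 to 15000 UMIs the median cell had 33 *rpl39* UMIs in the mutant and 18 in the control library, and 15 and 8 *rpl38* UMIs. The quartile range of *rpl39* was 16 to 52 UMIs in those mutant HCs and 8 to 28 in the control HCs, so the cells overlapped while the medians differed.

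In HCs *rpl29* had 1088 CPM in the mutant and 666 CPM in the control library (log2 0.71), and *rpl36a* 2747 and 1683 CPM (log2 0.71). In the *fabp7a* gate *rpl38*, *rpl29*, *rpl39* and *rpl36a* were at least 2-fold higher in the mutant library, at log2 ratios of 1.18, 1.08, 1.03 and 1.01. Among small subunit genes the highest ratios in HCs were those of *rps28* (0.67), *rps21* (0.67) and *rps26l* (0.64), apart from *rps8b*. All these members except *rps8b* were higher in the mutant library in all 5 classes.

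The only member at least 2-fold higher in mutant HCs was *rps8b*, the minor copy of the small subunit gene *rps8a*. It had 78 UMIs in mutant HCs (4.63 CPM) and 54 in control HCs (2.24 CPM), a log2 ratio of 1.05 with a wide interval of 0.53 to 1.57. At most 2 UMIs came from any single cell. The ratio was -0.059 after each cell was thinned to 2000 UMIs, and the member was not past 2-fold with the module as the scale or with a higher minimum of UMIs. In the other 4 classes it had between 15 and 79 UMIs over both libraries and was not compared.

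**Figure D3:**
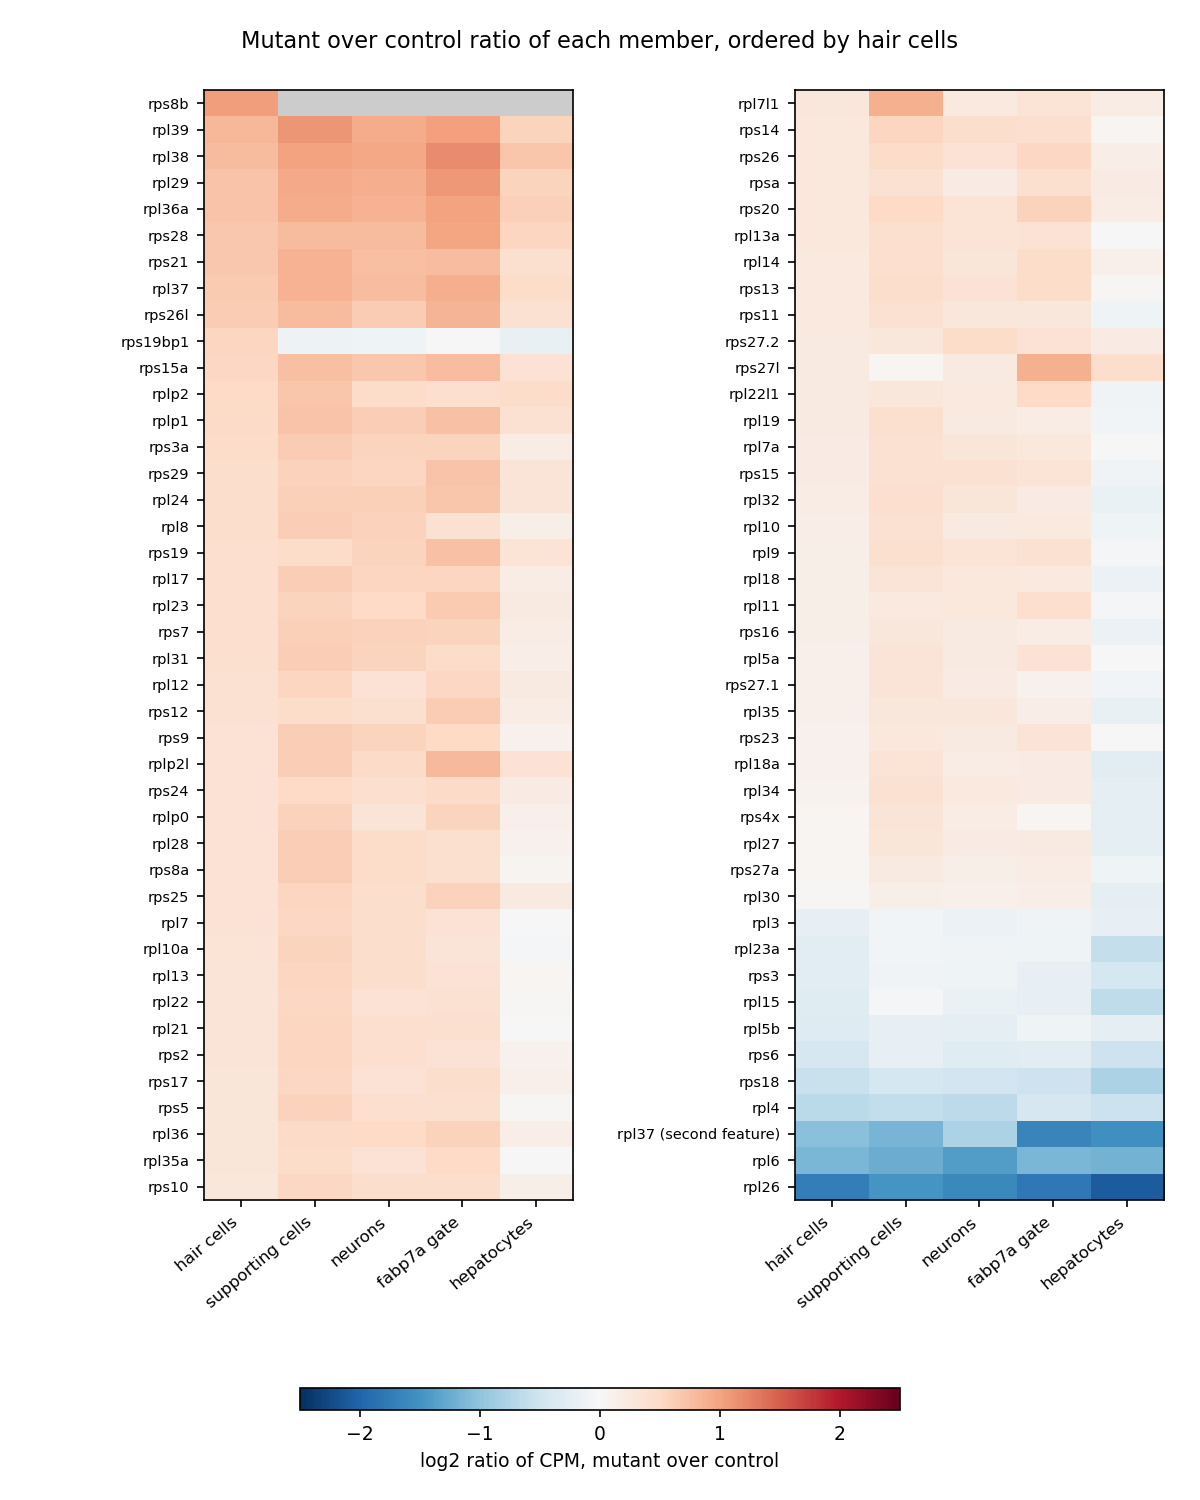
Log2 ratio of CPM, mutant over control, of the 84 ribosomal protein features (rows, ordered by HCs from the highest at the upper left to the lowest at the lower right) in 5 cell classes (columns); red is higher and blue lower in the mutant library, and grey marks features under 100 UMIs. Most rows are pale red in the first 4 columns and paler in hepatocytes, with *rpl39* (0.84 in HCs) near the head and *rpl6* (-1.15) and *rpl26* (-1.73) at the end.

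The 5 members with the most UMIs were *rps20*, *rps29*, *rps23*, *rpl19* and *rplp1*, which together made up 11.2% of the module in the mutant and 11.0% in the control library. Their log2 ratios in HCs ran from 0.11 for *rps23* and 0.22 for *rpl19* to 0.48 for *rplp1*, a component of the ribosomal stalk. The largest single member, *rps20*, had 3458 CPM in mutant and 2898 CPM in control HCs (log2 0.25). In hepatocytes *rps23* and *rpl19* were at log2 ratios of -0.015 and -0.064, and *rplp1* at 0.38. The 5 members with the fewest UMIs (*rps8b*, the second *rpl37* feature, *rps19bp1*, *rpl7l1* and *rps27l*) made up 0.0953% of the module in the mutant and 0.105% in the control library. No member had under 10 UMIs, and 1 had under 1000.

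The share of the module moved with the depth of a cell, which differed between the libraries. When HCs were split into 4 groups of equal size by their UMIs, the module share was 7.13, 12.0, 15.6 and 18.2% in mutant cells from the shallowest to the deepest group, and 7.32, 10.7, 11.3 and 15.2% in control cells. The groups were cut within each library, so groups of the same rank differ in depth. The shallowest groups of mutant and control HCs nearly met in share, at medians of 6077 UMIs in mutant and 8060 UMIs in control cells. The mutant share was higher in each deeper group, although each mutant HC group was shallower than the control group of its rank. Shallow HCs are therefore not shown to lack the difference. Mitochondrial UMIs made up 4.63% of the shallowest mutant group and 2.72% of the shallowest control group, against 2.29% and 2.00% of the deepest. In SCs the shallowest groups had 11.1% in mutant and 5.76% in control cells and the deepest 19.4% and 13.7%. Hepatocytes had 13.0% in mutant and 10.6% in control cells in the shallowest group, and 22.6% and 21.8% in the deepest. Among cells with 5000 to 15000 UMIs only, the log2 ratio of the module was 0.32 in HCs, 0.49 in SCs, 0.49 in neurons, 0.57 in the *fabp7a* gate and 0.38 in hepatocytes. The small ratio of hepatocytes was therefore not seen at that depth, where 174 mutant and 266 control hepatocytes remained.

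**Figure D4:**
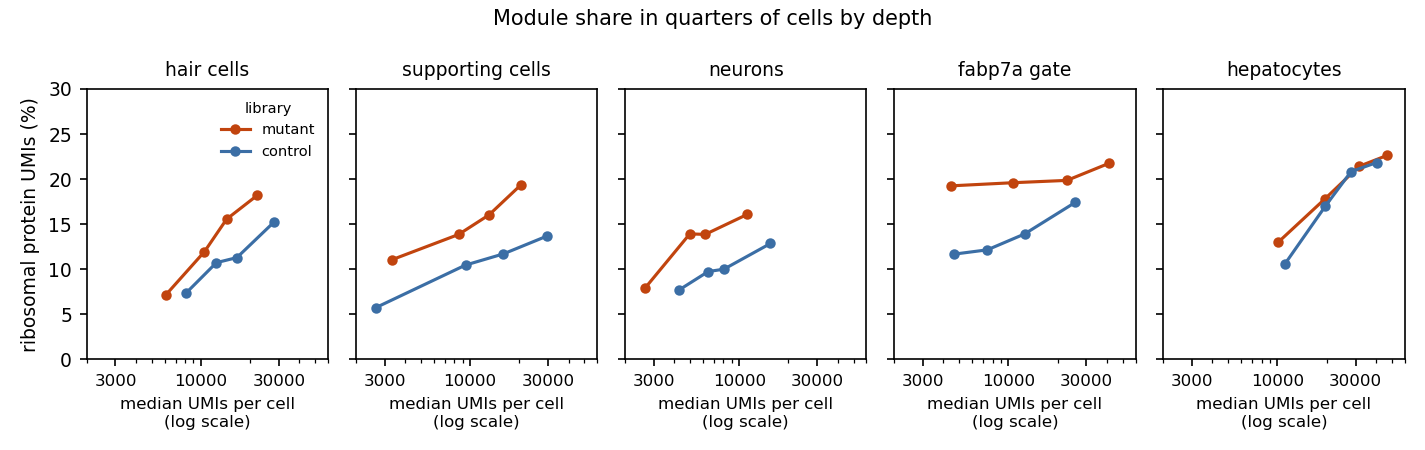
Module share (y axis, % of UMIs) in 4 equal groups of the cells of each class ordered by depth, against the median UMIs per cell of the group (x axis, log scale), for the mutant (orange) and control (blue) libraries. The share goes from 7.13 to 18.2% across mutant HCs and from 7.32 to 15.2% across control HCs, and the lines of hepatocytes lie close together.

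The module share also differed between classes within each library. Relative to all other kept cells of the same library, hepatocytes had a higher share at a log2 ratio of 0.46 in the mutant and 0.83 in the control library, and the *fabp7a* gate was higher at 0.40 and 0.32. Neurons were lower, at -0.28 in the mutant and -0.20 in the control library. HCs stood near the rest, at -0.14 in the mutant and 0.013 in the control library, and SCs at 0.039 and -0.028. The control values lean on the blood cells among the other cells. Without blood cells, HCs were at -0.14 in the mutant and -0.21 in the control library, SCs at 0.040 and -0.23, neurons at -0.28 and -0.44, the *fabp7a* gate at 0.40 and 0.13, and hepatocytes at 0.46 and 0.65. HCs were then lower than the other cells in both libraries, while SCs differed in direction. Among cells of 1 gate only, SCs were lower in both, at -0.13 in the mutant and -0.10 in the control library. None of these ratios was matched for depth, in which the classes differed. The shallowest depth group of mutant hepatocytes (median 10060.5 UMIs) had 13.0%, and the deepest of mutant neurons (11233 UMIs) 16.1%. In the control library these groups had 10.6% (11142 UMIs) and 12.9% (15523 UMIs). The order of hepatocytes over neurons was thus not seen between these groups. They also differed in mitochondrial UMIs, at 9.52% in mutant and 5.14% in control hepatocytes against 2.43% and 1.77% in the neurons. Whether depth alone accounts for the order was not tested.

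Blood cells could be described in the control library only. Globin genes made up 43.0% of their UMIs and ribosomal protein genes 8.31%, the lowest share of any class (log2 -0.78 against the other control cells). With mitochondrial and globin UMIs left out of the total, their module share was 14.8%, against 13.1% in control HCs, 11.9% in control neurons and 20.3% in control hepatocytes. The order of blood cells therefore depends on the globin in the denominator. Within the module, 5 members took at least 2 times the share that they had in other control cells. They were *rplp0*, *rplp2*, *rpsa*, the binding protein gene *rps19bp1* and the second *rpl37* feature. Stalk genes went both ways. Of these *rplp0* was at 3.58% of the module in blood cells and 1.48% in other cells, and *rplp2* at 1.51% and 0.591%, whereas *rplp2l* was at 1.34% and 1.72% and *rplp1* at 1.49% and 2.00%. The laminin receptor gene *rpsa*, which encodes a small subunit protein, was at 2.70% and 1.16%.

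Apart from blood cells, the makeup of the module was nearly the same in all classes. Only *rps8b* differed by 4-fold or more from the other cells in both libraries, being lower in hepatocytes (log2 of its share of the module -2.47 in the mutant and -3.26 in the control library, on 11 and 6 UMIs). In HCs it took a larger share in both libraries (log2 2.58 in the mutant and 1.84 in the control library). At least 1 *rps8b* UMI was found in 5.82% of mutant HCs (4.56 to 7.31%) and 3.68% of control HCs (2.76 to 4.79%), against 1.43% of mutant hepatocytes and 0.465% of control hepatocytes, although hepatocytes were deeper (medians of 24507 and 23890 UMIs, against 12339 and 14388 in HCs). Every other member took a share of the module in HCs that was within 2-fold of its share in other cells, in both libraries.

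Paralogs were used in different proportions between classes. The stalk gene *rplp2* took 53.1% of the UMIs of *rplp2* and *rplp2l* in control blood cells, 28.0% in mutant and 26.3% in control HCs, 32.6% and 31.3% in SCs, and 28.9% and 29.0% in neurons. In hepatocytes it took 18.2% in mutant and 17.3% in control cells. The order of these 4 classes and blood cells was thus the same in both libraries as far as both hold the class. Among cells of 1 gate only it took more in the mutant library, with 31.4% in mutant and 27.0% in control HCs, 36.7% and 33.4% in SCs and 32.2% and 29.1% in neurons. In the *fabp7a* gate *rplp2* took 20.05% in mutant and 24.9% in control cells, and 23.8% and 23.7% among cells of no other gate. For *rpl22l1*, a copy of *rpl22* known in mammals to be repressed by it, the share of the pair ran from 34.3% in mutant and 38.2% in control SCs to 45.8% in mutant and 48.0% in control hepatocytes, with 42.4% and 44.2% in HCs.

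In 2 pairs the same copy took a larger share in the mutant library in all 5 classes. Of the UMIs of *rpl5a* and *rpl5b*, whose protein carries the 5S rRNA into the ribosome, *rpl5a* took 59.7% in mutant against 51.8% in control HCs, 58.0% against 49.1% in SCs, 53.1% against 45.4% in neurons and 52.9% against 48.9% in hepatocytes. Of *rps26* and *rps26l*, *rps26l* took 55.9% in mutant and 49.4% in control HCs, 52.4% and 47.0% in SCs, and 50.4% and 45.6% in neurons. Near-identical copies may not be told apart fully in counting, so these splits are uncertain, and the counting version differed between the libraries. The minor copies had no single direction between the libraries. The copy *rps27l*, known in mammals as a p53 target, took 4.64% of the *rps27* group in mutant and 3.40% in control hepatocytes, 2.10% and 1.99% in HCs, 1.74% and 2.11% in SCs and 1.70% and 1.73% in neurons. At least 1 *rps27l* UMI was found in 88.8% of mutant and 83.5% of control hepatocytes and in 39.8% of mutant and 44.3% of control HCs. Its relative *rps27.2* took 20.1% of the group in mutant and 18.9% in control HCs, and *rps27.1* 77.8% and 79.1%. Similarly *rpl7l1* took 1.62% of *rpl7* and *rpl7l1* in mutant and 1.70% in control HCs, against 2.57% in mutant and 1.98% in control SCs. Of its pair *rps8b* took 0.214% in mutant and 0.133% in control HCs, and 0.0592% and 0.0977% in neurons.

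**Figure D5:**
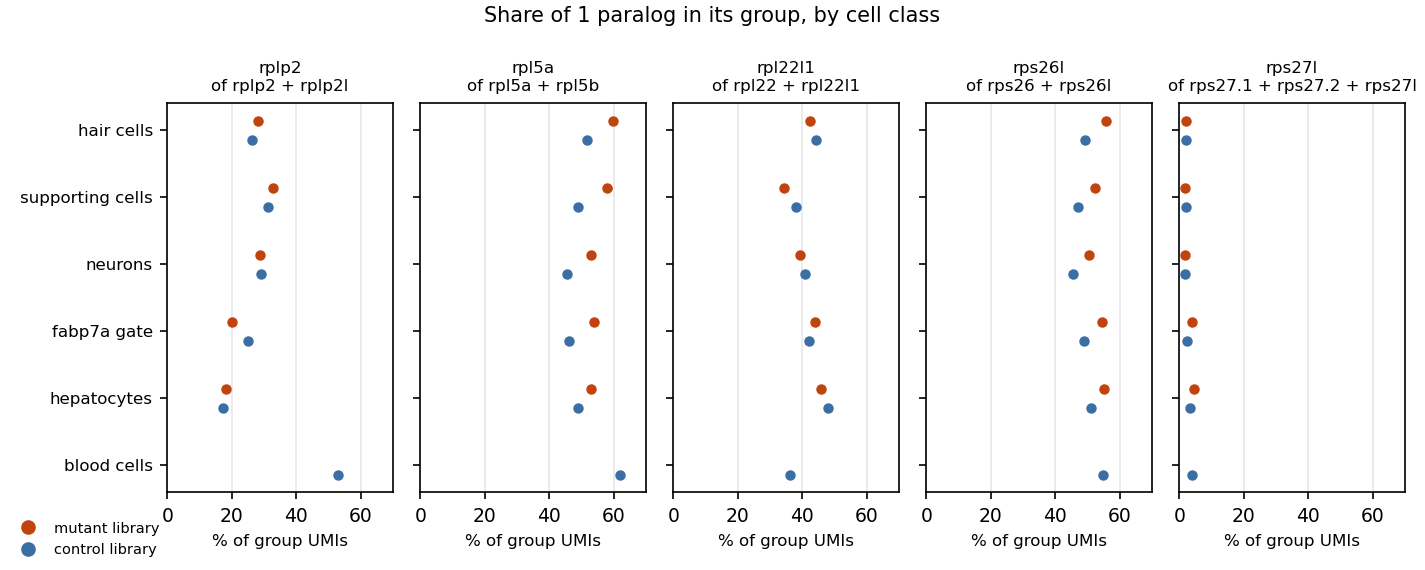
Share of 1 paralog in the UMIs of its group (x axis, %) by cell class (rows), mutant in orange above control in blue, with exact binomial intervals that are mostly smaller than the points. The share of *rplp2* is 53.1% in control blood cells and 18.2% in mutant and 17.3% in control hepatocytes, and *rpl5a* takes a larger share in the mutant library in all 5 classes shown for both.

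Within HCs the module share followed *atoh1a*, a transcription factor gene of HC specification that is high in young HCs. Among HCs with 10000 to 15000 UMIs, cells with at least 1 *atoh1a* UMI had a module share of 16.6% in the mutant (247 cells) and 12.8% in the control library (247 cells). Cells of that depth without one had 8.59% in the mutant (133 cells) and 7.52% in the control library (200 cells). At this depth the difference between the subsets was larger, at log2 ratios of 0.95 in the mutant and 0.76 in the control library, than that between the libraries within either subset, at 0.38 and 0.19. Over all depths this order turned round in the control library and was mixed in the mutant. The subsets differed by 0.34 in the mutant and 0.081 in the control library, and the libraries by 0.37 in cells with and 0.11 in cells without *atoh1a*. These ratios use summed UMIs. By medians over cells, HCs of all depths without *atoh1a* went the other way, at 8.19% in the mutant and 8.84% in the control library. Those with *atoh1a* were at 16.3% and 12.8%. Among HCs with 10000 to 15000 UMIs, those with at least 10 UMIs of *cabp5b*, a calcium-binding protein gene, were also summed. They had 9.97% in the mutant (115 cells) and 9.33% in the control library (83 cells). Those with at least 10 UMIs of *s100s* had 13.5% (149 cells) and 10.4% (140 cells). By medians over cells the *cabp5b* subset went the other way, at 7.68% in the mutant and 10.2% in the control library. The *s100s* subset had medians of 12.5% and 10.6%.

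HCs were also split by *lhfpl5a* and *lhfpl5b*, the mechanotransduction genes that the study used as markers of inner ear and lateral line HCs. The 59 mutant and 87 control HCs with *lhfpl5b* and no *lhfpl5a* UMI had module shares of 18.2% and 11.3% (log2 ratio 0.69). The 767 mutant and 835 control HCs with *lhfpl5a* and no *lhfpl5b* UMI had 14.2% and 11.9% (log2 ratio 0.25). The HC marker gene *pvalb8* was at 29488 CPM in mutant and 6821 CPM in control cells of the lateral line type. In the inner ear type it was at 2040 CPM in mutant and 466 CPM in control cells. Whether these splits took like cells in both libraries was not tested. Between the 2 types the lateral line type was higher in the mutant library (log2 0.36) and lower in the control library (log2 -0.083). At 10000 to 15000 UMIs only 21 mutant and 16 control cells of the lateral line type remained, with 16.4% and 11.8%, beside 304 mutant and 331 control cells of the inner ear type with 13.7% and 10.8%. By summed UMIs the lateral line type was thus the higher one in both libraries at that depth, on few cells. The medians over cells were 18.3% and 13.3% in the mutant library. In the control library they nearly met, at 11.67% in the lateral line type and 11.57% in the inner ear type. The control direction over all depths was thus not seen at that depth.

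Other genes of the translation machinery differed less evenly. In HCs the 41 translation factor and related genes compared had a median log2 ratio of 0.24, with 0 at least 2-fold higher and 1 at least 2-fold lower in the mutant library, and the 49 ribosome biogenesis genes a median of 0.12 (0 higher and 1 lower). The 76 mitochondrial ribosomal protein genes, whose products translate the mitochondrial genome, had a median of 0.43 in HCs (5 higher and 0 lower), 0.086 in SCs, 0.23 in neurons and 0.60 in the *fabp7a* gate (11 higher and 0 lower). Of all genes, 5.31% were at least 2-fold higher and 17.4% at least 2-fold lower in HCs, and 9.19% and 39.5% in the *fabp7a* gate. Their summed level was 3286 CPM in mutant and 2500 CPM in control HCs. In SCs the biogenesis genes had a median of 0.59 (6 higher and 0 lower of 43, beside 6.35% and 21.1% of all genes) and translation factors one of 0.50. The 21 regulators of ribosome production of the Myc and mTOR pathways had a median of 0.050 in HCs with 0 past 2-fold in either direction. Other classes differed more, with a median of 0.32 in neurons (2 higher and 0 lower, beside 5.61% and 15.8% of all genes). Among the 20 compared in SCs the median was 0.10 (1 higher and 3 lower). It was -0.62 among the 20 in the *fabp7a* gate (0 higher and 4 lower), and 0.061 in hepatocytes (0 and 0). In hepatocytes the medians were -0.13 for translation factors, 0.15 for biogenesis genes and -0.081 for mitochondrial ribosomal protein genes.

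Single genes of these lists went both ways. The elongation factor gene *eef1a1l1* was at 3420 CPM in mutant and 2982 CPM in control HCs (log2 0.20) and *eef1b2*, for a subunit of its exchange factor, at 945 and 654 CPM (log2 0.53). In contrast *tpt1*, whose mRNA is regulated like those of ribosomal proteins in mammals, was at 1280 CPM in mutant and 2125 CPM in control HCs (log2 -0.73). The repressor of cap-dependent translation *eif4ebp3l* had 312 mutant and 1237 control UMIs in HCs (log2 -1.47). The small subunit scaffold gene *rack1*, which the symbol rule does not take, was at 1211 CPM in mutant and 1322 CPM in control HCs (log2 -0.13), under the members' median of 0.28.

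Genes listed for heat shock and early response, which can rise with stress during dissociation, also differed between the libraries and did so in both directions. In HCs *hsp70l* was at 11017 CPM in mutant and 5826 CPM in control cells (log2 0.92), while *hsp90aa1.1* was at 28.0 and 633 CPM. The polyamine synthesis gene *odc1*, also on that list, was at 78.6 CPM in mutant and 555 CPM in control HCs. Of 33 genes on that list, 0 were at least 2-fold higher and 14 at least 2-fold lower in mutant HCs, beside 5.31% and 17.4% of all genes, and their summed level was 47734 CPM in mutant and 41841 CPM in control HCs. In SCs the sum was 74941 CPM in mutant and 45441 CPM in control cells, in neurons 54102 and 36123 CPM, and in hepatocytes 20722 and 27777 CPM. The part of this response in the module's share was not tested.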

How the data were processed

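Cells sorted for mGFP from larvae at 4 dpf gave 1 10x Genomics 3′ library per genotype. For each library the authors deposited a matrix of unnormalized UMI counts from Cell Ranger (9.0.1 for the mutant and 7.1.0 for the control, per the file headers), and the submitters' processing notes name the build GRCz11. The study sorted against doublets, and no doublet caller was run here. Barcodes that pass more than 1 gate were left out as an alternative.

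Within each library, the UMIs of a class were added up and expressed relative to their total. Intervals are exact, at 95%, from the binomial distribution for shares and, conditional on the sum, for ratios. Ratio code was tested on simulated data. Analyses used Python 3.11.15, numpy 2.4.6, scipy 1.17.1 and pandas 2.3.3, with figures from matplotlib 3.10.9. The members, the gates other than blood, and the gene lists were chosen with earlier results of these data known. The blood gate of 10% globin UMIs was set for this work. Named genes are the 3 highest and 3 lowest ratios per class among members with at least 100 UMIs, members whose share of the module in a class is 4-fold from that in other cells in both libraries, all members of paralog groups, the 5 with the most UMIs and any with under 10. Members named beyond this rule (the 11 lower in every class, *rps28*, *rps21*, the main *rpl37* feature and those of blood cells), the single genes of the other lists and the HC subsets were chosen after their values were seen. The IDs of all 84 members were found in the gene name table. Its symbols were not always the same, with COA1 for the second *rpl37* feature, RPS4Y2 for *rps4x* and RPL36AL for *rpl36a*. Start-site sequences were not analysed here. Alternatives changed the filters, gates, denominators, depth and member sets.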

Additional observations from a re-analysis of the deposited data

Results flagged for a closer look

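Over cells of all depths, the abundant members *rpl19* and *rps23* lay on opposite sides of 0 in hepatocytes and in HCs. The log2 ratio of mutant over control was -0.064 in hepatocytes and 0.22 in HCs for *rpl19*, and -0.015 in hepatocytes and 0.11 in HCs for *rps23*. Over all members, 21 had counting intervals on opposite sides of 0 in these 2 classes, and 0 did so between HCs and SCs, neurons or the *fabp7a* gate. The same count was not made over all genes, so these numbers are not shown to be particular to the module. The difference between the classes was not tested, since each has 1 library per genotype. None of these values was matched for depth. As described above, the module's small ratio in hepatocytes was not seen once cells were limited to a shared depth range. These opposite directions are therefore not shown to hold at matched depth.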

How the results depend on the processing

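The module's log2 ratio stayed above 0 in all 5 classes under every alternative run; 61 values moved by more than the counting interval and 4 did not. As reported it was 0.28 in HCs, 0.46 in SCs, 0.37 in neurons, 0.44 in the *fabp7a* gate and 0.083 in hepatocytes. In that order it was 0.25, 0.43, 0.31, 0.41 and 0.079 without mitochondrial and globin UMIs, 0.37, 0.59, 0.51, 1.14 and 0.27 scaled by the median ratio of all genes, and 0.16, 0.51, 0.41, 0.66 and 0.091 from the medians over cells. It was 0.29, 0.46, 0.38, 0.44 and 0.10 in cells of 1000 genes or more whose mitochondrial share was 10% or less, and over all barcodes 0.27 in HCs, 0.37 in neurons and 0.070 in hepatocytes. Cells of 1 gate only gave 0.21, 0.38, 0.38, 0.51 and 0.030, stricter gates 0.37, 0.48, 0.41, 0.46 and 0.054, and cells thinned to 2000 UMIs 0.24, 0.51, 0.42, 0.57 and 0.093. Without the 5 most abundant members it was 0.27 in HCs, 0.42 in the *fabp7a* gate and 0.071 in hepatocytes, without the like genes and the binding protein gene *rps19bp1* 0.27, 0.46, 0.37, 0.42 and 0.074, and as the median of the members 0.28, 0.47, 0.36, 0.39 and 0.042. Of the alternatives chosen after seeing the data, cells of 5000 to 15000 UMIs gave 0.32, 0.49, 0.49, 0.57 and 0.38, and the module without *rpl26*, *rpl6* and the second *rpl37* feature 0.29, 0.47, 0.39, 0.45 and 0.091.

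The number of members past 2-fold (4, 4, 2, 7 and 3 in the same order of classes) became 13, 26, 15, 20 and 8 at 1.5-fold. Scaled by the median ratio of all genes it was 8 in SCs, 6 in neurons and 57 in the *fabp7a* gate (56 higher and 1 lower), and scaled by the module 4 in neurons and 3 in the *fabp7a* gate. In thinned cells it was 2 in HCs and 1 in hepatocytes. The share of all genes was computed only for 2-fold on the scale of all UMIs. The counts under these other settings thus show how the number depends on the setting, and do not set the members against genes at large. Against other kept cells, the HC ratio of -0.14 in the mutant library was -0.32 in cells of 1 gate, -0.082 with stricter gates and -0.15 without mitochondrial and globin UMIs, and that of 0.013 in the control library was -0.10, -0.043 and -0.19, and -0.21 without blood cells. Of the paralog shares under other gates, 64 moved by more than their counting interval and 46 did not. Single members changed direction in 2 cases. For *rps8b* in HCs the ratio was -0.059 after thinning, where few UMIs remain, and for *rpl6* in hepatocytes it was 0.11 in cells of 5000 to 15000 UMIs; the cause of the second was not tested. No replicate could be left out and no paired analysis was possible because each genotype has 1 library.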
